A study of Mus musculus with 8 samples.

Results

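The genes described here encode the transforming growth factor beta (TGF-beta) system: the ligands Tgfb1, Tgfb2 and Tgfb3, the latency and activation proteins Nrros and Ltbp1, the receptors Tgfbr1, Tgfbr2 and Tgfbr3, and the intracellular mediators Smad3 and Smad7. They are the 10 rows of the count table that carry these symbols, out of 53278 symbols, and all 10 were among the 20140 genes with enough counts to be tested. Bulk RNA sequencing was done on whole forebrains from 8 C57BL/6J males between 10 and 20 weeks of age. For 9 days, 4 of them (depleted mice) received PLX3397 in their food, which inhibits the kinase CSF1R that microglia need to survive, and the other 4 (control mice) received food without it. No other treatment or genotype is given for either group, and each library is labelled as a separate mouse. The 10 genes were selected on their symbols with the per-mouse counts of this depleted-against-control comparison known, so the same counts chose them, and their fold changes and calls below are a description of these mice and are given without p-values.

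TGF-beta is secreted as a latent complex, in which the active dimer stays wrapped in its own propeptide. The propeptide is held by an anchoring protein, either in the matrix (the LTBP family) or on a cell surface (NRROS on microglia and other myeloid cells, LRRC32 on regulatory T cells, platelets and endothelium), until integrins pull the ligand free. The ligand then joins the type II receptor TGFBR2 to the type I receptor TGFBR1, which phosphorylates SMAD2 and SMAD3, while SMAD7 is induced by the pathway and blocks it. In the brain this pathway is known for keeping microglia in their homeostatic state, and for its role in vessel development.

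Loss of microglial transcripts was the setting for every value below. Csf1r itself stood between 51.6 and 65.0 CPM in control mice and between 0.386 and 1.69 CPM in depleted mice (CPM, library-scaled counts, with TMM scaling factors). All 12 genes of a microglia marker list passed the test as lower, and the summed level of the list was 223 to 268 CPM in control and 31.8 to 37.2 CPM in depleted mice. No marker of the list was at 0 in all depleted mice. Markers of border-associated macrophages, which also need CSF1R, were lower in 3 of 5 tested genes (summed level 12.3 to 17.2 CPM in control, 2.95 to 5.76 CPM in depleted mice). Of the 5 oligodendrocyte precursor markers 3 were lower (median log2 fold change of the 5, -0.86), although their sums overlapped (159 to 191 against 152 to 179 CPM). Endothelial (193 to 247 against 193 to 245 CPM) and pericyte and smooth muscle markers (194 to 239 against 193 to 212 CPM) had 0 of 8 genes past the threshold each. Some lists with 0 genes past the threshold and overlapping sums still differed in mean. Striatal projection neuron markers summed to 342 to 1685 CPM in control and 839 to 3292 CPM in depleted mice (means 947 and 2359). Oligodendrocyte markers summed to 4113 to 8063 against 6401 to 9572 CPM, and meningeal fibroblast markers to 76.1 to 115 against 41.6 to 105 CPM. In bulk tissue, fewer cells of a type and less RNA per cell cannot be told apart.

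Of the 10 genes, 3 were called lower at an adjusted p under 0.05 over all genes (edgeR's quasi-likelihood test): Tgfb1, Tgfbr1 and Tgfbr2. Over all genes tested, 1.11% of genes were called lower and 0.0546% higher. None of the 10 was called higher in edgeR, DESeq2 or limma-voom. At an unadjusted p under 0.05 there were 5 lower genes, the same 3 with Tgfb2 and Nrros, and 1 higher gene, Smad7, where 5.60% of all tested genes were lower and 5.38% higher. In the same 3 genes every depleted mouse lay below every control mouse, a separation that 3.50% of all tested genes shared, and the other 7 overlapped between groups. The median log2 fold change of the 10 was -0.24, beside -0.00038 over all genes tested. Since the list was chosen with this contrast in view, nothing is read from these shares.

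**Figure D1:**
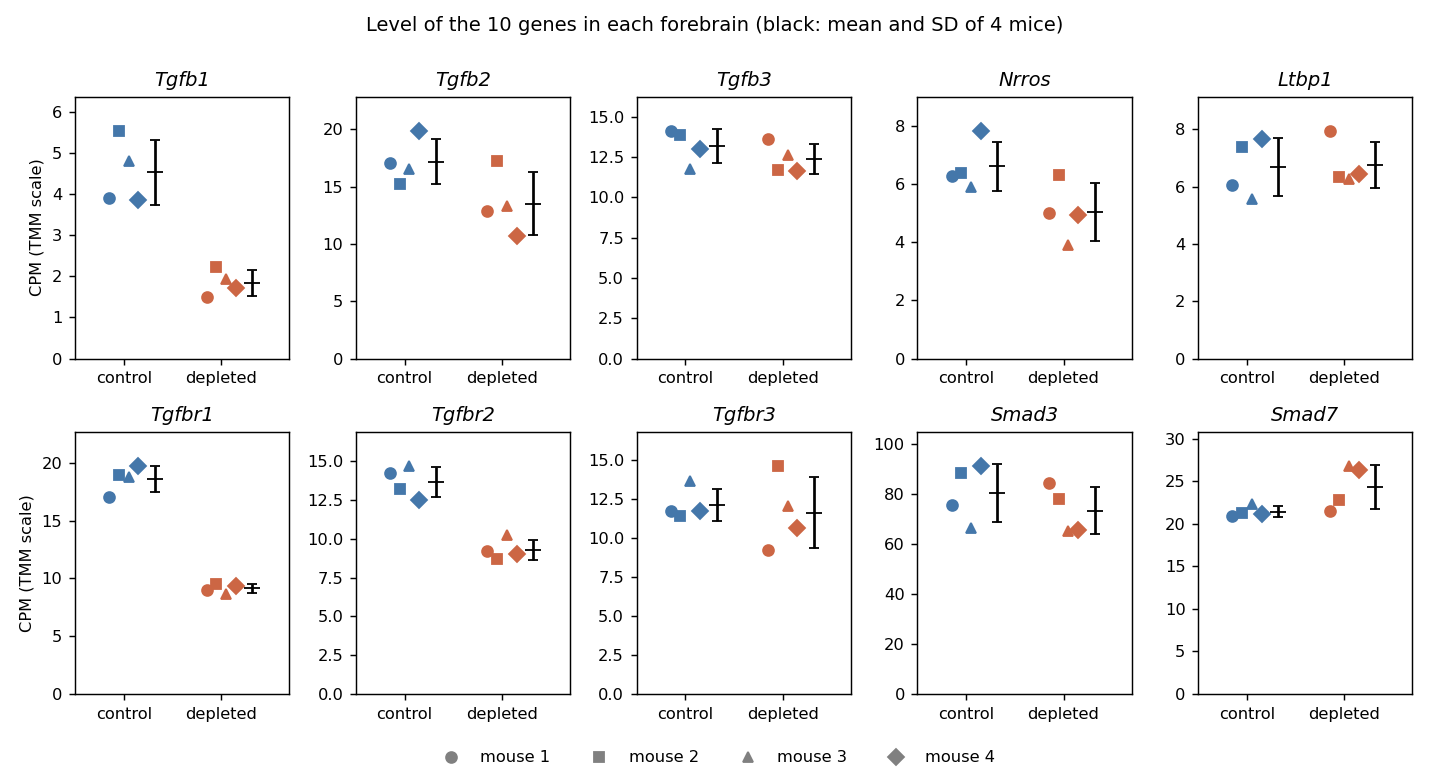
Level of each of the 10 genes in each mouse, in CPM on the TMM scale with axes from 0; symbols mark the mice of a group by their number, which does not pair mice between groups, and black bars give the mean and SD of 4 mice. Tgfb1, Tgfbr1 and Tgfbr2 show a gap between control and depleted mice, and the other 7 genes overlap.

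The sequences just before the start sites of the 3 lower genes, with that of Tgfb2, are printed so that their motif content can be compared. Each is the 250 bases before the RefSeq start on the gene's own strand (GRCm38.p6), with motif matches in capitals, for Tgfb1 at chr7:25686752-25687001 (plus strand), Tgfbr1 at chr4:47352972-47353221 (plus), Tgfbr2 at chr9:116175364-116175613 (minus) and Tgfb2 at chr1:186705990-186706239 (minus).
Tgfb1: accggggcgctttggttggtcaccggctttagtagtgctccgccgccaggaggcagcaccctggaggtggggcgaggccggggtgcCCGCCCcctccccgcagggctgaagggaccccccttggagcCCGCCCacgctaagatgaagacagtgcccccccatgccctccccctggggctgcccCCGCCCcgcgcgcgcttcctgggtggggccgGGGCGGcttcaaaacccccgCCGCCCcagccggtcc
Tgfbr1: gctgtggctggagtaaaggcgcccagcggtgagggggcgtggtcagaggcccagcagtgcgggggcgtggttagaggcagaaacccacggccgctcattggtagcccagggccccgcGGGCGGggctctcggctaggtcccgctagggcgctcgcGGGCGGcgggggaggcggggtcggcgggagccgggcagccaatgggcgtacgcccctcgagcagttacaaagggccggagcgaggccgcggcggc
Tgfbr2: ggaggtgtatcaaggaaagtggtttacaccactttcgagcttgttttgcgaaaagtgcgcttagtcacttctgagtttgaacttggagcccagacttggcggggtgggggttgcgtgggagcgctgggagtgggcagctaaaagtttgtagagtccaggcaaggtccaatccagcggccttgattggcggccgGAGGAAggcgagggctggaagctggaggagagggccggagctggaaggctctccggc
Tgfb2: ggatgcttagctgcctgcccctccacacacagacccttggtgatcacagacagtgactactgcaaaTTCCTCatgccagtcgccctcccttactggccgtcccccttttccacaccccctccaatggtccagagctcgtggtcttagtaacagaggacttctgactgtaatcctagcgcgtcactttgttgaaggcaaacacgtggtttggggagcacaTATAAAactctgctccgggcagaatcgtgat

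The 5 motifs were searched on both strands, and no match overlapped a match of another motif. They were the GC box bound by SP1 (GGGCGG), the core of the binding site of the myeloid factor PU.1 (GAGGAA), the TATA box (TATAAA), the Smad-binding CAGA box (AGCCAGACA) and the palindromic Smad element (GTCTAGAC). The Tgfb1 window held 5 GC boxes and had a GC content of 75.2%, and the Tgfbr1 window held 2 GC boxes at a GC content of 74.8%. Neither held a PU.1 core or a TATA box. The Tgfbr2 window, at 58.4% GC, held 1 PU.1 core, 57 bases before the start, and no GC box. The Tgfb2 window, at 53.6% GC, held a TATA box 31 bases before the start and 1 PU.1 core on the other strand (TTCCTC). The windows of Tgfb1 and Tgfbr1 were thus alike in GC content and in holding GC boxes, and that of Tgfbr2 was not. This was not particular to the lower genes. The window of Smad3, which was not called, also held 2 GC boxes, at a GC content of 69.2%. No motif was present in all 3 lower genes. A GC box occurred in 32.7% of all 32851 RefSeq windows of this length, a PU.1 core in 23.3%, a TATA box in 12.4%, a CAGA box in 0.301% and the palindrome in 0.167%. Windows of 7 of the 10 genes were read, and none of these 7 held either Smad motif. Those of Tgfb3, Tgfbr3 and Smad7 were not read, so nothing is known here of their motifs. A match is a run of letters and not evidence of binding.

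Among the ligands, the level of Tgfb1 was lower by 59.4% on average. Tgfb1 encodes the ligand known in the brain from microglia and endothelium (chromosome 7, 25687002 to 25705077, GRCm38, with no exonic bases shared with another gene). Its level was 3.91, 5.54, 4.80 and 3.87 CPM in control mice 1 to 4 and 1.49, 2.22, 1.93 and 1.71 CPM in depleted mice 1 to 4. The highest depleted mouse stood well below the lowest control mouse. The means were 4.53 ± 0.800 and 1.84 ± 0.312 CPM (SD, n = 4 per group), a log2 fold change of -1.30 (SE 0.17). Single depleted mice kept 32.8% to 49.0% of the control mean, against 0.659% to 2.88% for Csf1r. Depleted mouse 2, with the lowest Csf1r of all mice, had the highest Tgfb1 of its group. Tgfb1 is thinly covered: its lowest library held 82 counts (95% exact Poisson interval 65.2 to 102, counting error only).

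Tgfb2 and Tgfb3 were the more abundant ligands and were not called. Tgfb2 (chromosome 1, 186622792 to 186705989), known from neurons, astrocytes and meninges, stood at 17.0, 15.2, 16.5 and 19.9 CPM in control mice and at 12.9, 17.2, 13.3 and 10.7 CPM in depleted mice. Depleted mouse 2 lay within the control range and the other 3 below it. Its means were 17.2 ± 1.95 and 13.5 ± 2.72 CPM (log2 fold change -0.35, SE 0.14), and without depleted mouse 2 the log2 fold change was -0.47 (SE 0.12), still not called. With a score of striatal neuron genes as a covariate it was -0.13 (SE 0.15). Tgfb3 (chromosome 12, 86056745 to 86079041), the third ligand, ranged from 11.8 to 14.1 CPM in control and from 11.6 to 13.6 CPM in depleted mice, so the groups overlapped almost fully (log2 fold change -0.09, SE 0.09). Tgfb2 shares 124 and Tgfb3 420 exonic bases with antisense or unconfirmed transcript models on the opposite strand, whose reads cannot be told apart if counting ignored strand.

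Corrected for exonic length, Tgfb1 was the rarest of the 3 ligand transcripts in every mouse. It made up 9.83%, 14.0%, 13.1% and 9.53% of the 3 ligands in control mice 1 to 4 and 4.51%, 6.40%, 5.99% and 6.02% in depleted mice 1 to 4. The 4 depleted values were all below the 4 control values (11.6% ± 2.27 against 5.73% ± 0.834, SD, n = 4). Tgfb3 held the largest share per exonic length, 50.2% ± 2.80 in control and 57.8% ± 5.22 in depleted mice. Tgfb2 held 38.2% ± 3.76 and 36.5% ± 4.72. In both Tgfb2 and Tgfb3 the shares overlapped between groups. The order of Tgfb3 over Tgfb2 depends on the length used. Exonic lengths are 5791 bases for Tgfb2 and 3383 for Tgfb3, and coding lengths 1326 and 1236. Per coding length, the mean of Tgfb2 was above that of Tgfb3 in control mice. The summed level of the 3 ligands was 7.76 ± 0.331 CPM per kb in control and 6.36 ± 0.527 CPM per kb in depleted mice, or 82.0% of control. Of that difference in mean level, Tgfb2 (-0.63 CPM per kb) and Tgfb1 (-0.53 CPM per kb) were the larger parts, and Tgfb3 stood at -0.24 CPM per kb. The part of Tgfb2 is the less firm, since its groups overlapped and it was not called.

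**Figure D2:**
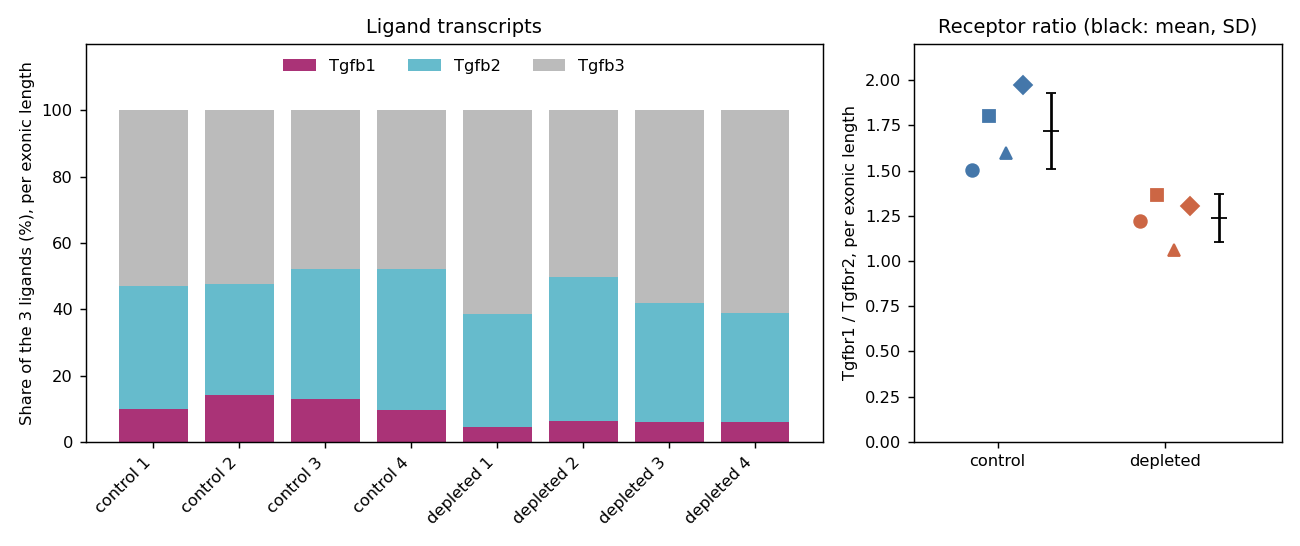
Left, share of Tgfb1, Tgfb2 and Tgfb3 in their summed CPM per exonic length in each mouse, in percent. Right, ratio of Tgfbr1 to Tgfbr2 per exonic length in each mouse, with the mean and SD of 4 mice in black; for both the Tgfb1 share and the receptor ratio, every depleted mouse is below every control mouse.

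The transcripts of the latency genes differed less between the groups than that of Tgfb1. Nrros (chromosome 16, 32142785 to 32165594), which anchors latent TGF-beta on microglia, stood at 6.28, 6.39, 5.90 and 7.82 CPM in control mice and at 4.99, 6.31, 3.90 and 4.92 CPM in depleted mice. Depleted mouse 2 fell among the controls and the other 3 lay below all controls. The means were 6.60 ± 0.843 and 5.03 ± 0.988 CPM, so 76.2% of the control level was left (log2 fold change -0.39, SE 0.15, not called). Its groups thus overlapped in the same libraries in which Csf1r was nearly lost. In the annotation used here, no exonic base of Nrros is shared with another gene. The source of the Nrros level left was not tested. In every alternative run its log2 fold change stayed negative (-0.51 to -0.20, the last with the striatal score as a covariate) and uncalled. Lrrc32, the related anchor of endothelium and T cells, ranged from 3.00 to 4.41 CPM in control and from 3.32 to 4.43 CPM in depleted mice (log2 fold change 0.03, SE 0.15). Per exonic length, Nrros made up 65.8% ± 3.32 of these anchors together in control and 58.6% ± 6.43 in depleted mice, with overlap through depleted mouse 2 (68.1%).

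Ltbp1 (chromosome 17, 75005568 to 75392512), which tethers the latent complex to the matrix, ranged from 5.57 to 7.66 CPM in control and from 6.26 to 7.94 CPM in depleted mice. The groups overlapped, and the log2 fold change was 0.02 (SE 0.13). Ltbp1 was the least abundant of the 10 genes per length in control mice.

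Tgfbr1, the type I receptor kinase gene (chromosome 4, 47353222 to 47414931), showed the most even difference between the groups. It stood at 17.1, 19.0, 18.8 and 19.7 CPM in control mice and at 9.00, 9.52, 8.66 and 9.36 CPM in depleted mice. The spread within each group was small beside the gap between them: the coefficient of variation was 5.96% in control and 4.21% in depleted mice. The means were 18.6 ± 1.11 and 9.13 ± 0.385 CPM, a log2 fold change of -1.03 (SE 0.08), and single depleted mice kept 46.5% to 51.1% of the control mean. It was called in each of 19 alternatives, where the log2 fold change lay between -1.07 and -0.99.

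Tgfbr2, the ligand-binding type II receptor gene (chromosome 9, 116084293 to 116175360), was lower by less. It stood at 14.2, 13.2, 14.7 and 12.5 CPM in control mice and at 9.21, 8.73, 10.2 and 9.01 CPM in depleted mice. The groups did not overlap, although they came closer than for Tgfbr1. The means were 13.7 ± 0.980 and 9.29 ± 0.648 CPM, a log2 fold change of -0.55 (SE 0.09), with 68.1% of the control level left. Its call ended with the replicate number as a block (-0.55), with the striatal score as a covariate (-0.59), without control mouse 3 (-0.51) and without depleted mouse 4 (-0.54), while the size stayed close.

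The proportion between the receptor genes differed as well. The ratio of Tgfbr1 to Tgfbr2 per exonic length was 1.51, 1.80, 1.60 and 1.97 in control mice 1 to 4, and 1.22, 1.37, 1.06 and 1.30 in depleted mice 1 to 4. All depleted ratios were below all control ratios (1.72 ± 0.209 against 1.24 ± 0.132). The size of the ratio depends on the length used. Per coding length it was 1.62 ± 0.196 in control and 1.16 ± 0.124 in depleted mice, again without overlap. Tgfbr3, or betaglycan, the co-receptor that presents TGF-beta2 to the signalling pair (chromosome 5, 107106570 to 107289629), ranged from 11.4 to 13.7 CPM in control and from 9.23 to 14.6 CPM in depleted mice. Its depleted values surrounded the control range (log2 fold change -0.06, SE 0.14). Tgfbr3 shares 297 exonic bases with an unconfirmed transcript model on its own strand.

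The intracellular mediators were not called. Smad3 (chromosome 9, 63646767 to 63757994), the transcription factor that receives the signal, was the most abundant of the 10 genes, with 66.2 to 91.1 CPM in control and 65.4 to 84.2 CPM in depleted mice (log2 fold change -0.13, SE 0.12). The 8 values overlapped widely. Smad7 (chromosome 18, 75367529 to 75395935), the feedback inhibitor, stood at 21.0, 21.3, 22.3 and 21.2 CPM in control mice and at 21.5, 22.7, 26.8 and 26.4 CPM in depleted mice. Depleted mice 2, 3 and 4 were above the controls, and depleted mouse 1 was within their range. The means were 21.4 ± 0.604 and 24.4 ± 2.61 CPM (log2 fold change 0.18, SE 0.08), so the depleted level was 114% of control.

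Ordered by level per exonic length in control mice, Smad3 came first at 14.5 ± 2.09 CPM per kb, followed by Smad7 (4.74 ± 0.134) and Tgfb3 (3.90 ± 0.314). Tgfb2 (2.96 ± 0.337) and Tgfbr1 (2.85 ± 0.170) overlapped and each was the higher in 2 of 4 mice. Tgfbr3 (1.85 ± 0.159), Tgfbr2 (1.67 ± 0.120) and Nrros (1.58 ± 0.202) followed. Tgfbr3 overlapped with Tgfbr2 and Tgfbr2 with Nrros, and Nrros lay apart from Tgfb1. Tgfb1 (0.898 ± 0.159) and Ltbp1 (0.624 ± 0.0947 CPM per kb) were lowest and lay apart from each other. In depleted mice the level of Tgfbr1 was 1.40 ± 0.0589 CPM per kb, below that of Tgfbr3 (1.78 ± 0.351), and Tgfb1 (0.364 ± 0.0620) was below Ltbp1 (0.631 ± 0.0749). Much of this order depends on the use of exonic length. Per coding length, the mean of Tgfbr1 stayed above Tgfbr3 and that of Tgfb1 above Ltbp1 in depleted mice. In control mice Tgfb2 was then above Tgfb3, Tgfbr2 above Tgfbr3 and Tgfb1 above Nrros.

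The libraries differed in their markers of brain regions, so the level left is also given within sets of mice. Hcrt, a neuropeptide gene of the hypothalamus, had at least 100 counts in mice 2 and 3 of each group and 4 to 12 counts in the other 4 mice. The split does not remove hypothalamic tissue from the second set: the summed level of 6 hypothalamus markers was at most 10.4 CPM in its control mice, 4.92 CPM in depleted mouse 1 and 57.6 CPM in depleted mouse 4, against 140.0 to 180 CPM in the first set. Tgfb1 was left at 40.1% of control among the mice with at least 100 Hcrt counts and at 41.1% among those with fewer (2 against 2 mice each). Tgfbr1 was left at 48.2% and 49.9%, and Tgfbr2 at 68.0% and 68.2%. In these 3 genes the depleted mice lay below the control mice within each set of 4. Values also lay close together in genes that were not called. Smad7 stood at 113.5% and 113.7%, with its depleted mice above the control mice within each set, and Tgfb3 at 94.9% and 93.1%, with overlap. Tgfb2 was left at 95.9% in the first set (log2 fold change -0.06, SE 0.15) and at 63.9% in the second (-0.64, SE 0.16), Nrros at 83.0% and 70.2%, and Tgfbr3 at 106% and 84.7%. The sets were also unlike in a striatal score (mean log2 CPM of striatal neuron genes). In the second set it was 4.66 and 5.69 in control mice against 7.83 and 7.75 in depleted mice. In the first set it was 7.11 and 6.49 against 6.12 and 8.12. The differences between the sets, and the part of either region in them, were not tested. With 4 mice, edgeR called Tgfbr1 in each set, but not Tgfb1 or Tgfbr2.

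Depleted mouse 2 was the highest depleted mouse for Tgfb2, Nrros and Tgfbr3, and for Tgfb1 and Tgfbr1, where it stayed below the controls. The same library had the highest summed level of meningeal fibroblast markers among depleted mice (105 CPM against 41.6 to 55.4 CPM, with 76.1 to 115 CPM in control mice) and of astrocyte markers (1552 CPM against 1023 to 1168 CPM, with 1091 to 1210 CPM in control mice). It also had the lowest striatal neuron level of its group (839 CPM against 2590.6 to 3292 CPM, with 342 to 1685 CPM in control mice). The part of these tissues in the levels of the 5 genes was not tested. The count of called members was 3 without this mouse, as with it.

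**Figure D3:**
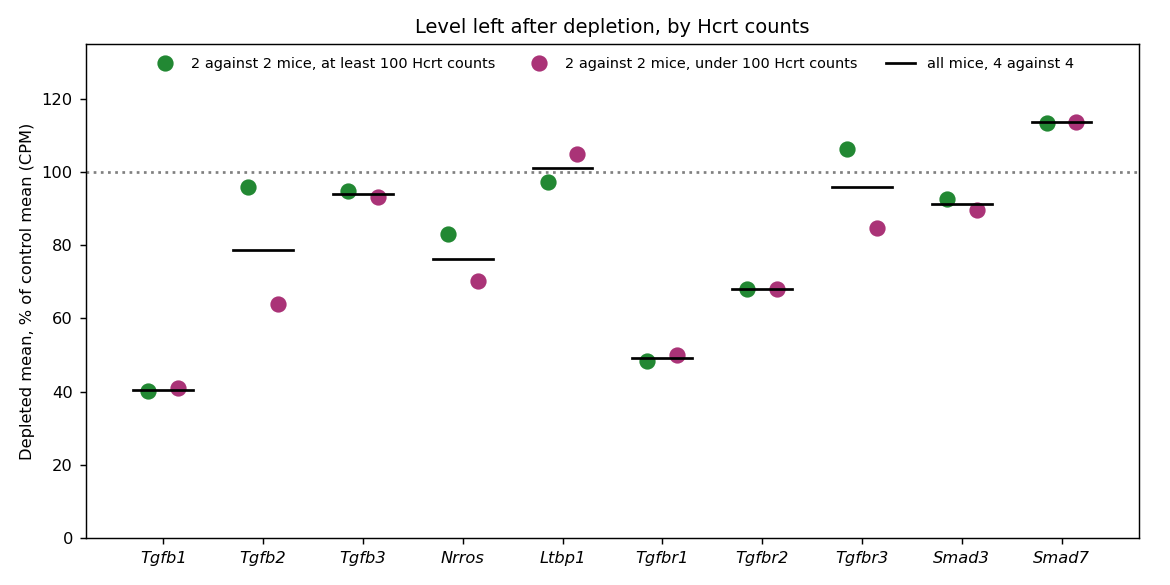
Mean level in depleted mice as a percentage of the mean in control mice for each of the 10 genes, over all 8 mice (black line) and within the 4 mice with at least 100 Hcrt counts and the 4 with fewer (points). Tgfb1, Tgfbr1, Tgfbr2, Tgfb3 and Smad7 give nearly the same value in each set, whereas Tgfb2, Nrros and Tgfbr3 do not.

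Outside these 10 genes, most of the TGF-beta pathway was not called. Of 104 further pathway genes in 6 lists, 100 were tested, of which 2 passed as lower (1.11% of all tested genes did) and 1 as higher (0.0546% of all), and their median log2 fold change was 0.0044. Of these 100 genes 10 had a negative and 6 a positive change with an unadjusted p under 0.05, beside 5.60% and 5.38% of all tested genes. The lists were chosen with earlier results of these data known, so their calls and p-values are a description of these mice.

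Among 20 tested genes of latency and activation, Itgb5 fell. Itgb5 encodes the beta5 integrin subunit (chromosome 16, 33829665 to 33949338), whose pairing with the alphav subunit can activate latent TGF-beta and which microglia express strongly. It stood at 38.6, 40.6, 38.1 and 33.9 CPM in control mice and at 19.6, 23.7, 20.8 and 21.8 CPM in depleted mice, with a wide gap. Its means were 37.8 ± 2.83 and 21.5 ± 1.71 CPM (log2 fold change -0.82, SE 0.08, adjusted p = 0.000375 in edgeR, lower in 4 of 4 depleted mice), and it passed in all 19 alternatives (adjusted p up to 0.0477). Itgb8, the subunit through which astrocytes and other cells activate TGF-beta, named here outside the rule for its role, stood at 0.21 (SE 0.14, adjusted p = 0.642). In this list 15 genes had a negative and 5 a positive fold change (median -0.14), beside 10090 and 10050 of all tested genes. At an unadjusted p under 0.05 in edgeR 5 were lower and 1 higher, beside 5.60% and 5.38% of all tested genes. In 4 genes every depleted mouse lay below every control mouse, as in 3.50% of all.

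Receptors and co-receptors of the wider family had 0 of 16 genes called in edgeR, DESeq2 and limma-voom, and 3 had an unadjusted p under 0.05 (1 negative and 2 positive, where all tested genes had 5.60% and 5.38%). The type I receptor genes Acvr1c (0.74, SE 0.25, adjusted p = 0.324) and Acvrl1 (0.47, SE 0.19, adjusted p = 0.407) had the smallest p and both passed without depleted mouse 2 (0.93, adjusted p = 0.0396, and 0.64, adjusted p = 0.0411). The striatal score of depleted mice 1, 3 and 4 was above that of every control mouse, and with it as a covariate the fold changes were 0.27 (SE 0.29) for Acvr1c and 0.15 (SE 0.23) for Acvrl1. Its part in their values was not tested. The remaining 6 Smad genes all had a positive fold change (median 0.08), as did 10050 of all 20140 tested genes. Of the 6, 0 were called by any of these tools and 1 had an unadjusted p under 0.05 (5.38% of all genes did with a positive change). Smad9, a BMP-branch mediator, stood at 0.20 (SE 0.08, adjusted p = 0.430) and Smad4, the common partner, at 0.19 (SE 0.09, adjusted p = 0.505). Of 20 Smad regulators 0 were called by these tools and 1 had an unadjusted p under 0.05, again beside 5.38% of all genes with a positive change, the ubiquitin ligase gene Wwp1 (0.22, SE 0.08, adjusted p = 0.367). The corepressor gene Tgif2 stood at 0.46 (SE 0.21, adjusted p = 0.463), but 2360 of its 3832 exonic bases are shared with transcript models on the opposite strand, whose reads cannot be told apart if counting ignored strand. Acvr1c shares 168, Acvrl1 127 and Wwp1 46 exonic bases with models on the opposite strand.

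Among 23 genes that TGF-beta can induce or regulate, Col4a1 was called lower. Col4a1 encodes a collagen chain of the vascular basement membrane (chromosome 8, 11198423 to 11312826), and it went from 64.6 ± 4.42 to 51.0 ± 2.74 CPM (log2 fold change -0.34, SE 0.07, adjusted p = 0.0387 in edgeR, lower in 4 of 4 depleted mice). It shares 22 exonic bases with Col4a2 on the opposite strand. Col4a1 lost its call in 12 of 19 alternatives, 7 of them among the 8 fits without 1 mouse. The call also ended in edgeR with the striatal score as a covariate (-0.31, adjusted p = 0.423) and with the replicate block (adjusted p = 0.0938). Ccn2 (connective tissue growth factor) and Id1, named outside the rule, were not called: Ccn2 stood at 0.0095 (SE 0.11, adjusted p = 0.986 in edgeR) and Id1 at -0.03 (SE 0.16, adjusted p = 0.972 in edgeR). Ccn2 shares 665 exonic bases with a model on the opposite strand. Over this list 15 genes had a negative and 8 a positive fold change (median -0.05), beside 10090 and 10050 of all tested genes.

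Among 15 tested ligands of the wider superfamily, Bmp4 was called higher. Bmp4, a bone morphogenetic protein of the oligodendrocyte lineage (chromosome 14, 46383520 to 46390669), went from 4.06 ± 0.492 to 6.92 ± 1.12 CPM (log2 fold change 0.77, SE 0.14, adjusted p = 0.0312 in edgeR, higher in 4 of 4 depleted mice). It shares 89 exonic bases with a gene model on the opposite strand. It lost its call in 9 of 19 alternatives, among them the replicate block (adjusted p = 0.127) and the fits without control mice 1, 2 or 4 or depleted mice 1 or 3.

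**Figure D4:**
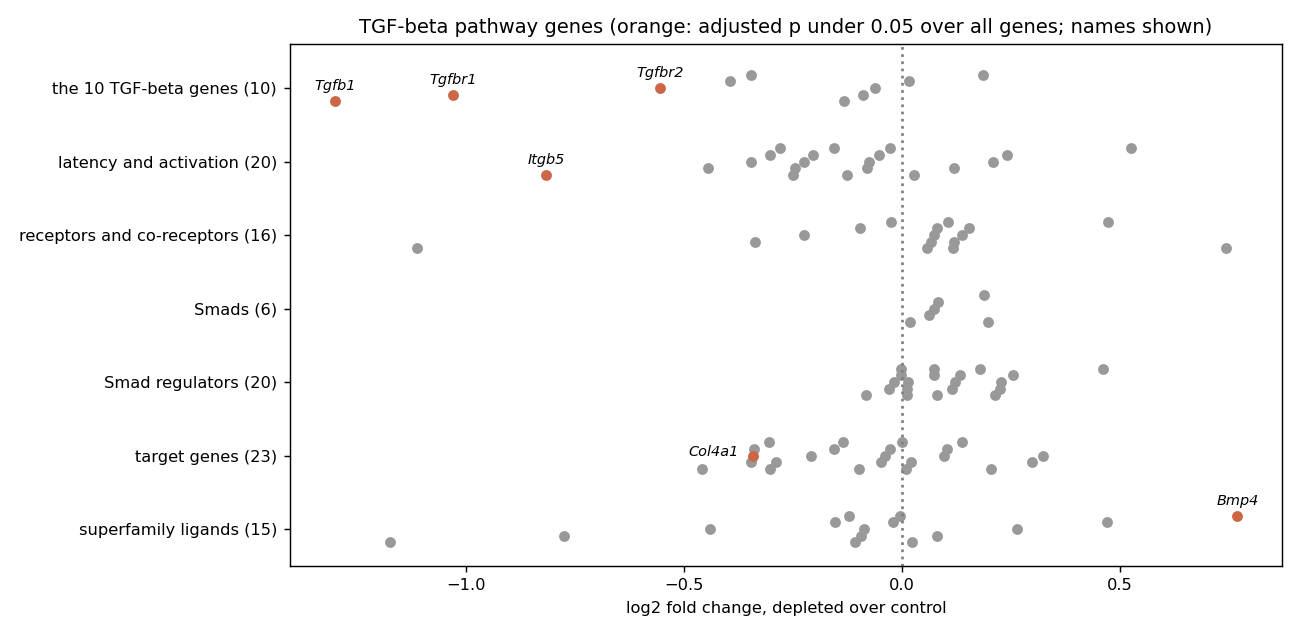
Log2 fold change, depleted over control, of the 10 TGF-beta genes and of the tested genes of 6 pathway lists, 1 point per gene (height within a row only separates points). Genes at an adjusted p under 0.05 over all genes are orange and named: Tgfb1, Tgfbr1, Tgfbr2, Itgb5 and Col4a1 are lower and Bmp4 is higher.

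The genes whose pattern over the 8 mice was most like that of the 3 lower members were found by the Euclidean distance between centred log2 CPM profiles, among 13927 genes whose log2 CPM averaged 1 or more. Nearest to Tgfb1 were Apbb1ip, an adaptor of integrin activation in blood cells (distance 0.503), the interleukin-6 receptor gene Il6ra (0.519) and the leukocyte cytoskeleton gene Dock8 (0.560), left at 38.0%, 41.8% and 37.0% of control. Nearest to Tgfbr1 were the leukocyte inhibitory receptor gene Lair1 (0.277), the precursor proteoglycan gene Cspg4 (0.408) and Ccdc88b (0.432), left at 49.2%, 55.1% and 52.5%. Nearest to Tgfbr2 were the myeloid signalling adaptor gene Card9 (0.203), the annexin gene Anxa3 (0.248) and Emid1 (0.305), left at 66.2%, 66.7% and 67.5%. The measure rewards an equal group difference above all, so it says little about likeness within a group.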

How the data were processed

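The values the authors deposited are raw counts, 1 row per gene symbol, in 8 columns matched to the 4 control and 4 depleted mice by name. STAR, FastQC, MultiQC, DESeq and DESeq2 and the mm10 build are listed, without their roles, per the submitters' processing notes. Versions, annotation release and strandedness: not given in the sources used here. Total counts per mouse ranged from 48455538 to 68406688, so 1 CPM was 48.5 to 69.3 counts. No pair of replicates lay within sampling noise.

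After filterByExpr and TMM scaling, genes were tested in edgeR 4.0.16 (glmQLFit, glmQLFTest; R 4.3.3), with group as the model's 1 term because no batch is labelled, and Benjamini-Hochberg adjustment over all genes. Each standard error is the fold change divided by the root of its F statistic. A prior count of 2 entered log2 CPM. The members, the pathway and marker lists and the alternatives were chosen with earlier results of these data known. Named were the 10 members, every called gene of a pathway list (or the 2 with the smallest p), and the 3 genes nearest to each called member. Pathway symbols were matched by name, 2 of them through an older symbol. Lengths, coordinates and overlaps come from GENCODE M21 (GRCm38, the same build as mm10), and promoters from RefSeq (GRCm38.p6). DESeq2 1.42.0 and limma 3.58.1 (voom) were alternatives. On simulated counts for this comparison (19878 genes, 50 changed per size), edgeR recovered 86% of genes at 0.4 times the control level, 82% at 0.5 times and 38% at 0.67 times. At 1.5 times the control level it recovered 54%, and 7.14% of calls were false.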

Additional observations from a re-analysis of the deposited data

Results flagged for a closer look

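The level of a single mouse lay far from the other 3 of its group in 2 of 40 groups of 4 mice examined (the 10 members, the named pathway genes and Csf1r), about the 1 in 20 that chance gives. Tgfbr3 was 13.7 CPM in control mouse 3 and 11.4 to 11.7 CPM in the other control mice, so that the gap took 0.861 of the range (above Dixon's 95% critical value for 4 samples). Ltbp1 was 7.94 CPM in depleted mouse 1 and 6.26 to 6.44 CPM in the other depleted mice, a gap of 0.895 of the range, also above it.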

How the results depend on the processing

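The members had 3 lower and 0 higher calls in all fits on 8 mice except those with the replicate block or the striatal score (2 lower each, without Tgfbr2). Within each set of 4 mice split at 100 Hcrt counts 1 member was lower, and without single mice 2 to 3 were. Over all genes, 223 were lower and 11 higher. The higher genes numbered 25 with no filter on low counts, 6 with a filter of 1 CPM in 4 samples, 4 with the replicate block, 2 with the striatal score as covariate, 118 in DESeq2 (346 lower), 0 in the 4 mice with at least 100 Hcrt counts (66 lower) and 128 in the other 4. Without single mice 178 to 441 were lower and 2 to 243 higher, the highest counts without depleted mouse 2 and the fewest higher genes without depleted mouse 3. The 2 lower and 1 higher pathway genes became 1 and 0 with the replicate block, with the striatal score and in the set with at least 100 Hcrt counts, 1 lower with the Hcrt set as a block, and 0 higher in the set with fewer Hcrt counts. Without single mice 1 to 7 were lower and 0 to 3 higher, and 7 and 3 were those without depleted mouse 2. The difference in the Tgfb1 share of the ligands was -5.89 percentage points, -6.93 with coding in place of exonic lengths and -6.58 to -5.08 without single mice.

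Near 0, Tgfbr3 (-0.06; -0.18 to 0.029 without single mice) changed sign with the striatal score (0.057), in the set with at least 100 Hcrt counts (0.088), without control mouse 3 (0.0052) and without depleted mouse 1. Ltbp1 (0.017; -0.075 to 0.090 without single mice) did so with the striatal score (-0.057), in that set (-0.036), and when control mouse 1 (-0.026), control mouse 3 (-0.055) or depleted mouse 1 was left out. The causes were not tested. The replicate block ended the calls of Tgfbr2 (-0.55), Col4a1 (-0.34) and Bmp4 (0.76) and changed no other call among the members and the pathway genes named in the report. The replicate numbers are not said to pair mice: deviations from the group means correlated from -0.29 to 0.60 over the 4 same-numbered pairs, and 1 of 4 control mice (mouse 3) correlated best with its own number. Fits within the sets split by Hcrt counts were chosen after seeing the data. Depth limits Tgfb1 most among the members.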

Other observations

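Several matrix and activation genes of the pathway were called when depleted mouse 2 was left out, named here after their values were seen. Without it the proteoglycan gene Dcn, whose product can bind TGF-beta and which also stands in the list of meningeal fibroblast markers, stood at -1.95 on the log2 scale (SE 0.19, edgeR adjusted p = 0.000813), against -1.11 (SE 0.47, adjusted p = 0.429) with all mice. The fibronectin gene Fn1 (-0.47, adjusted p = 0.0259), the proprotein convertase gene Furin, which cleaves the TGF-beta precursor (-0.27, adjusted p = 0.0454), the latency gene Ltbp4 (-0.35, adjusted p = 0.0454) and the inhibin beta B gene Inhbb (-0.59, adjusted p = 0.0479) were called lower in edgeR as well. In DESeq2 on all 8 mice, Ltbp4 passed (-0.30, adjusted p = 0.0300) and the other 4 of these genes did not. Leaving out this mouse was 1 of 8 such fits, and the number of calls over all genes rose with it to 441 lower and 243 higher.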
